A study of Mus musculus with 10 samples.

Results

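Genes of the ileal bile acid pathway were followed through the libraries: Fabp6, Slc10a2, Slc51a, Slc51b, Nr1h4, Fgf15 and Nr0b2. They were chosen by name, as 7 of the 28987 genes listed in each library. Bile acids are made in the liver, released into the gut and taken back up by the last stretch of the small intestine, the ileum. There, enterocytes, the absorptive cells, import them with the apical transporter encoded by Slc10a2, carry them with the binding protein FABP6 and pass them to the blood through the heteromeric exporter encoded by Slc51a and Slc51b. Inside the cell, bile acids activate FXR, the nuclear receptor encoded by Nr1h4, which as a dimer with RXR raises Fabp6, Slc51a, Slc51b, Fgf15 and Nr0b2. Fgf15 encodes a hormone that reaches the liver and lowers bile acid synthesis, and Nr0b2 encodes SHP, a repressor of other nuclear receptors.

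The libraries were made from total RNA of ileal crypts, shaken from the tissue of mice labelled male, C57Bl6 and 12 weeks old. The 3 control libraries (Ctrl) are labelled VilCreER;Stat5 (STAT5+/+), the 2 deletion libraries (KO) VilCreER;Stat5 (STAT5IEC-/-) and the 5 overexpression libraries (OE) VilCreER;icS5 (STAT5IEC+++). All groups thus carry VilCreER, a Cre recombinase that is driven by the villin promoter in the intestinal epithelium and needs an inducing drug, and no induction schedule is given in the sources used here. The labels do not spell out icS5, and no control of that line is analysed here. The study asked what loss and gain of STAT5, a transcription factor activated by cytokines and growth hormone, do in the crypt. The labels do not say whether each library is a different animal. The p-values thus speak only to the spread between these samples, which may be technical.

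Values are TPM, shares of all transcripts corrected for gene length. They hold no read numbers, and how deeply each library was sequenced is unknown. "Scaled TPM" are deposited TPM divided by a factor that sets the typical gene to the same level in each library. Ctrl 2 stood apart. Mitochondrially encoded genes took 83.7% of its TPM, against 43.3% to 57.0% in the other 9 libraries. It had 8263 genes at 1 TPM or more, against 11050 to 11932, and its factor was 0.295, against 0.831 to 1.31. Ctrl 3, OE 3 and OE 4 summed to 3.45, 0.250 and 0.140 TPM over Y-linked genes although labelled male, and the other libraries to 32.3 to 131. In scaled TPM, Stat5a was at 1.07 to 2.60 in Ctrl, 0.336 and 0.637 in KO and 1.56 to 3.55 in OE, with OE 1, at 1.56, inside the Ctrl range. Results for the bile acid genes are given with all libraries and, where it changes them, without Ctrl 2.

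In 9 libraries the ileal genes Fabp6 and Slc10a2 lay at 244 to 1401 and at 29.1 to 72.5 scaled TPM. In Ctrl 2 these were at 41.6 and 1.13, while Fabp1 and Lct, which are made more strongly in the upper small intestine, were at 772 and 541. The highest of the other 9 was at 24.1 for Fabp1 and 32.9 for Lct. As deposited, with 1 added to both values, Ctrl 2 was above the highest other library by 7.80-fold for Fabp1 and 3.89-fold for Lct. Slc51b and Fgf15 of Ctrl 2 lay inside the range of the others in scaled TPM. What these values say of the tissue was not tested. In scaled TPM, 176 of the 13056 genes tested (1.35%) lay at least 4-fold lower in Ctrl 2 than in every other library. Fabp6 and Slc10a2 were 2 of these 176. The promoters of Fabp6 and Slc10a2 are shown here because the results below turn on that contrast. Each runs over the 250 bases before the start site in RefSeq (GRCm38.p6, the assembly also called mm10), read on the minus strand. Fabp6 is at chr11:43601563-43601812 and Slc10a2 at chr8:5105288-5105537.

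Fabp6: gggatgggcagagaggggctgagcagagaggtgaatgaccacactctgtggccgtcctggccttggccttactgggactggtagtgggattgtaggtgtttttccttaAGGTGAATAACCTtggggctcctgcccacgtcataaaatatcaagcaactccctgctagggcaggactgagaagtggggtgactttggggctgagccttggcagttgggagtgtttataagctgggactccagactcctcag
Slc10a2: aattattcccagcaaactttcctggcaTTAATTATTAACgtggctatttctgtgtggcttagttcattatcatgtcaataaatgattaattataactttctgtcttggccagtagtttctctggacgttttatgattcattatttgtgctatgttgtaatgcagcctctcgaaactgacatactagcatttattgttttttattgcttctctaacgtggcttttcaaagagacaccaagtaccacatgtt

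Capitals in Fabp6 mark a match to AGGTNA, any base and TNACCT in a row, a loosened form of the inverted repeat that FXR with RXR binds. It begins 142 bases before the start site and occurs, on either strand, in 7 of 32851 promoters of 300 bases (0.0213%). Capitals in Slc10a2 mark a match to TTAAT, any base and ATTAAC in a row, letters of the kind bound by HNF1 factors, which begins 223 bases before the start site. They occur in 20 of the 32851 promoters (0.0609%). Both of these letter patterns were chosen after the promoters were seen. The stricter repeat, AGGTCA, any base and TGACCT in a row, was in 3 promoters (0.00913%) and in none of the 6 promoters of these genes that the table holds. The STAT palindrome TTCNNNGAA was in 2726 promoters (8.3%), among them those of Slc51b (TTCTCGGAA, 65 bases before the start) and Nr0b2 (TTCAATGAA, 91 bases before). The Fgf15 promoter is not in the table. These matches are letters in a window and were not tested as sites.

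Slc10a2 (ENSMUSG00000023073, chromosome 8, 5083219 to 5105351, minus strand), the importer, was at 30.9, 1.13 and 33.3 scaled TPM in Ctrl 1 to 3. KO 1 and KO 2 were at 41.4 and 55.7, and OE 1 to 5 were at 72.5, 33.0, 29.1, 44.8 and 37.6. Both KO libraries lay above every Ctrl library, as they did for 9.09% of all genes tested. The OE libraries overlapped both groups, and Ctrl 2 was far below all. Means ± SD were 21.8 ± 17.9 (Ctrl, n = 3), 48.6 ± 10.2 (KO, n = 2) and 43.4 ± 17.3 (OE, n = 5). KO stood 1.89 above Ctrl on the log2(scaled TPM + 1) scale in limma (95% interval -0.29 to 4.07), with an adjusted p of 0.943. OE stood 1.67 above Ctrl (-0.08 to 3.42, limma adjusted p = 0.755). Without Ctrl 2 these differences were 0.57 (-0.33 to 1.47) and 0.35 (-0.40 to 1.10), so most of either difference was carried by that 1 library. In a sample of many cells, fewer cells of a type and less RNA per cell cannot be told apart, here and in all that follows.

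Fabp6 (ENSMUSG00000020405, chromosome 11, 43596049 to 43601540, minus strand), which carries bile acids through the enterocyte, had the highest level of the 7 genes in every library but Ctrl 2. It was at 479.6, 41.6 and 739 scaled TPM in Ctrl 1 to 3, 603 and 244 in KO 1 and 2, and 1401, 496, 359, 584 and 603 in OE 1 to 5. OE 1 was the highest library and Ctrl 2 the lowest, and the 3 groups overlapped. Means ± SD were 420.1 ± 353 (Ctrl, n = 3), 423 ± 254 (KO, n = 2) and 689 ± 409.7 (OE, n = 5). The log2 difference was 0.64 for KO against Ctrl (-1.68 to 2.95, limma adjusted p = 0.948) and 1.32 for OE against Ctrl (-0.54 to 3.17, limma adjusted p = 0.759). Without Ctrl 2 the first turned to -0.63 (-2.05 to 0.78) and the second fell to 0.05 (-1.14 to 1.23). Each of these intervals holds differences in either direction.

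**Figure D1:**
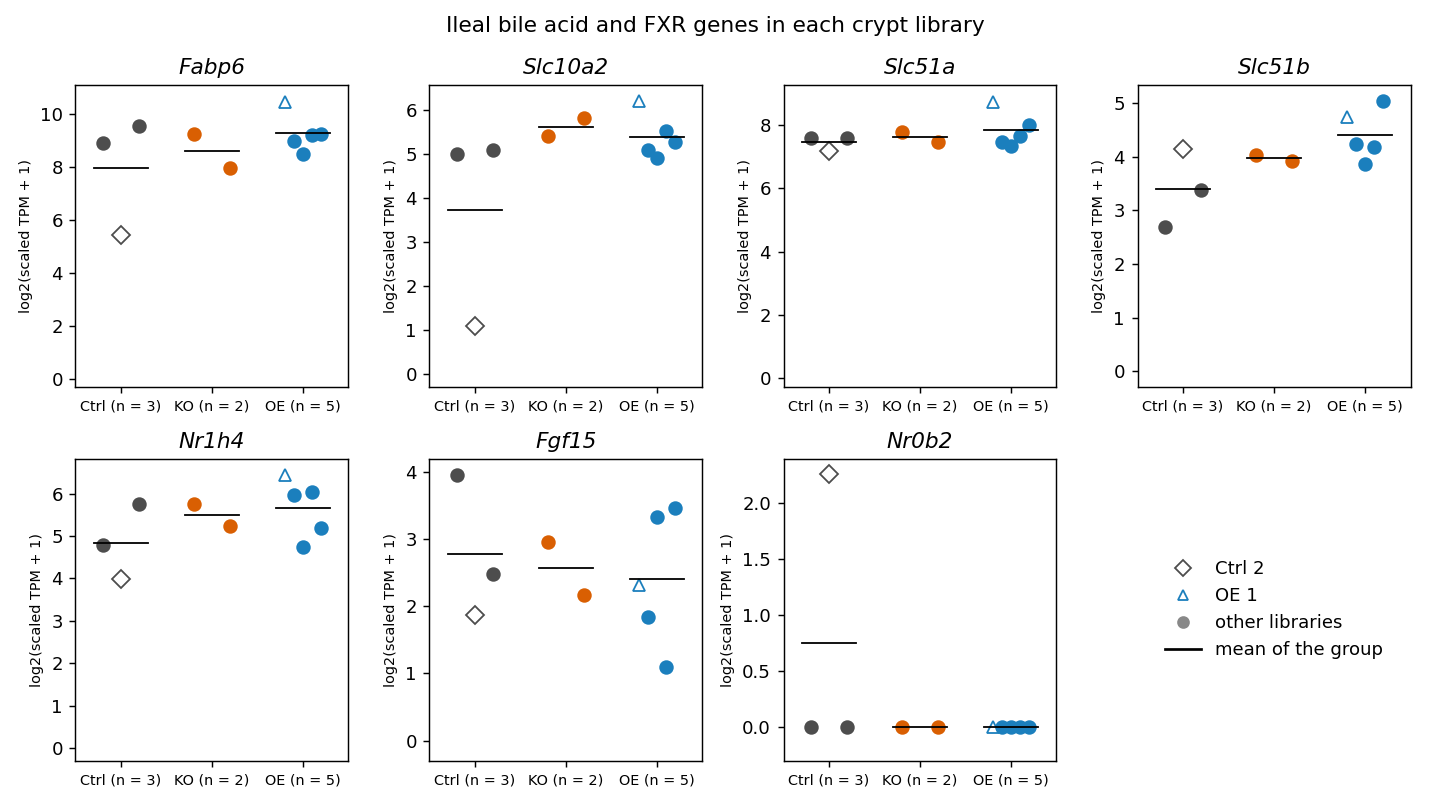
Level of each of the 7 genes in every library, as log2(scaled TPM + 1) on the vertical axis, by group on the horizontal axis. Points are libraries, with Ctrl 2 as an open diamond and OE 1 as an open triangle, and the line is the group mean of the log2 values. Ctrl 2 lies far below the rest for Fabp6 (41.6 scaled TPM) and Slc10a2 (1.13), and is the only library above 0 for Nr0b2.

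The exporter's larger partner, Slc51a (ENSMUSG00000035699, chromosome 16, 32474504 to 32487879, minus strand), varied least of the 7 over the 10 libraries, with a coefficient of variation of 38.1%. Its libraries were at 195, 145 and 191 scaled TPM in Ctrl. The KO libraries were at 221 and 176, and the OE libraries at 431, 176, 161, 202 and 257. All but OE 1 lay between 145 and 257, and the groups overlapped. Means ± SD were 177 ± 27.6 (Ctrl, n = 3), 199 ± 32.0 (KO, n = 2) and 246 ± 110.2 (OE, n = 5). The log2 difference from Ctrl was 0.17 in KO (-0.73 to 1.07, limma adjusted p = 0.963) and 0.39 in OE (-0.34 to 1.11, limma adjusted p = 0.779). Without Ctrl 2 these were 0.03 and 0.25.

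Slc51b (ENSMUSG00000053862, chromosome 9, 65412714 to 65422955, minus strand), which encodes the small beta subunit of the exporter, was at 5.45, 16.7 and 9.46 scaled TPM in Ctrl 1 to 3. The KO libraries were at 15.5 and 14.1, and OE 1 to 5 were at 25.8, 18.0, 13.6, 17.2 and 32.0. Here Ctrl 2 was the highest control, inside the range of the other groups, and Ctrl 1 and Ctrl 3 lay below all KO and OE libraries. Means ± SD were 10.5 ± 5.72 (Ctrl, n = 3), 14.8 ± 0.939 (KO, n = 2) and 21.3 ± 7.44 (OE, n = 5). OE stood 1.01 above Ctrl on the log2 scale (0.21 to 1.80), with an unadjusted p of 0.0177 and a limma adjusted p of 0.755. KO stood 0.57 above Ctrl (-0.42 to 1.57, limma adjusted p = 0.943). Without Ctrl 2 the differences were larger, 1.38 for OE (0.62 to 2.14, limma adjusted p = 0.998) and 0.94 for KO (0.03 to 1.85, limma adjusted p = 1.0). Among the 797 genes with an unadjusted p under 0.05 in OE against Ctrl, it was thus one that did not pass the adjustment.

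Markers of other cells differed beside Slc51b, with 0 passing the limma threshold. In OE against Ctrl the difference was positive for 5 of 5 T cell genes, with a median log2 difference of 1.01. It was positive for 4 of 4 B cell genes (median 2.03) and 3 of 3 red blood cell genes tested (1.31). So it was for 6 of 6 Paneth genes (1.54, or 0.30 without Ctrl 2) and 4 of 4 macrophage genes tested (0.48). Proliferation genes were positive in 6 of 6 (0.74, or 0.048 without Ctrl 2) and fibroblast genes in 3 of 4 tested (0.63). In KO against Ctrl it was positive for 4 of 4 B cell genes (1.26) and 4 of 4 fibroblast genes tested (1.45). The same held for 6 of 6 Paneth (0.89), 5 of 5 stem cell (0.36) and 4 of 4 macrophage genes tested (0.85). Without Ctrl 2 the Paneth and stem cell medians there were -0.41 and -0.046. It was negative for 4 of 4 tuft cell genes (-0.43) and 4 of 5 T cell genes (-1.07). All 20 enterocyte genes were negative in both comparisons (medians -0.90 in KO, -0.58 in OE). Without Ctrl 2 these medians were -0.16 and 0.12, with 7 and 16 genes positive. By library, T cell genes summed to 37.5 to 139 scaled TPM in Ctrl, 23.2 and 57.3 in KO and 64.9 to 290.5 in OE. B cell genes summed to 0.0229 to 4.65 in Ctrl, 7.44 and 17.8 in KO and 4.16 to 70.6 in OE, and fibroblast genes to 2.38 to 17.2, 12.3 and 41.9, and 1.26 to 48.4. Red blood cell genes summed to 12.8 to 40.0 in Ctrl, 36.9 and 56.6 in KO and 15.4 to 143 in OE. The part of these cells in the Slc51b values was not tested.

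The order of the Slc51b libraries depends on the scaling of Ctrl 2. In TPM as deposited, Slc51b was at 6.65, 4.93 and 12.3 in Ctrl 1 to 3. The KO libraries were then at 18.7 and 14.8, and the OE libraries at 21.4, 23.5, 15.9, 20.4 and 35.7. On that scale every KO and every OE library lay above every Ctrl library, as held for 8.44% of all genes tested in KO and 1.78% in OE. The ratio of Slc51a to Slc51b within a library does not depend on scaling. It was 35.7, 8.66 and 20.2 in Ctrl, 14.3 and 12.5 in KO, and 16.7, 9.80, 11.9, 11.7 and 8.05 in OE. Ctrl 1 and Ctrl 3 had the highest ratios of the 10 libraries, whereas Ctrl 2 had nearly the lowest. The ratio of Fabp6 to Slc10a2 was 36.8 in Ctrl 2 and 4.38 in KO 2, and 12.3 to 22.2 in the other 8 libraries.

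**Figure D2:**
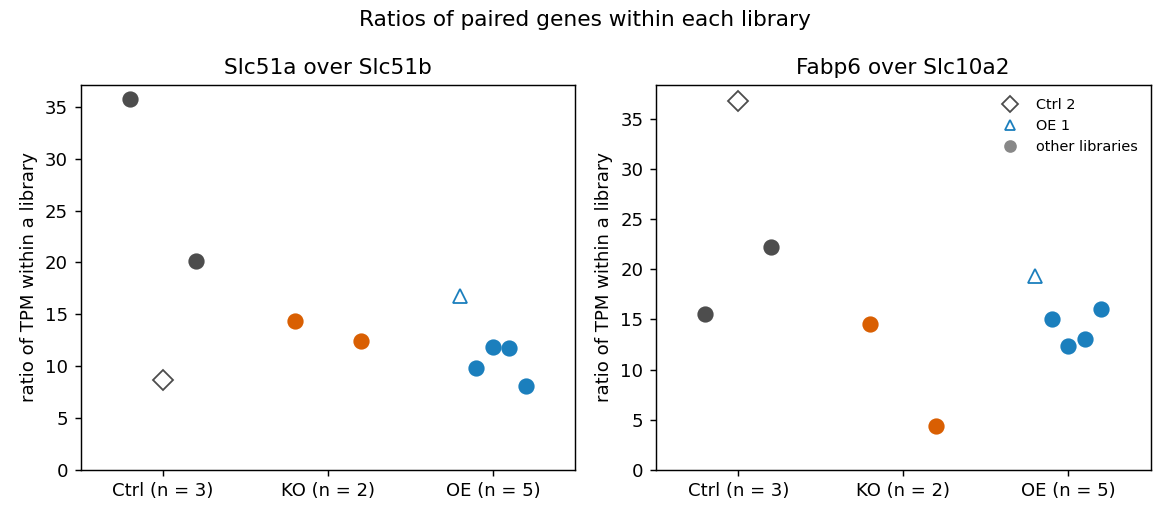
Ratio of deposited TPM of Slc51a over Slc51b (left) and of Fabp6 over Slc10a2 (right) in each library, by group. Points are libraries, with Ctrl 2 and OE 1 drawn open. On the left Ctrl 1 (35.7) and Ctrl 3 (20.2) are the highest, and on the right Ctrl 2 (36.8) is the highest and KO 2 (4.38) the lowest.

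Nr1h4 (ENSMUSG00000047638, chromosome 10, 89454234 to 89533585, minus strand), the bile acid receptor FXR, was at 26.4, 14.9 and 52.5 scaled TPM in Ctrl, 52.6 and 36.6 in KO, and 85.5, 61.4, 25.6, 65.0 and 35.2 in OE. The lowest library was again Ctrl 2 and the highest OE 1, and the groups overlapped. Means ± SD were 31.3 ± 19.3 (Ctrl, n = 3), 44.6 ± 11.3 (KO, n = 2) and 54.5 ± 24.1 (OE, n = 5). The log2 difference from Ctrl was 0.65 in KO (-0.62 to 1.92, limma adjusted p = 0.943) and 0.83 in OE (-0.19 to 1.85, limma adjusted p = 0.755). Without Ctrl 2 these were 0.23 (-1.03 to 1.48) and 0.41 (-0.64 to 1.46).

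Fgf15 (ENSMUSG00000031073, chromosome 7, 144896531 to 144900953, plus strand), the ileal hormone that acts on the liver, was low. Its libraries were at 14.5, 2.67 and 4.59 scaled TPM in Ctrl, 6.76 and 3.50 in KO, and 3.97, 2.60, 9.0, 1.13 and 10.0 in OE. Ctrl 1 was the highest and OE 4 the lowest, and unlike the carriers, Fgf15 was not high in OE 1. Means ± SD were 7.27 ± 6.38 (Ctrl, n = 3), 5.13 ± 2.31 (KO, n = 2) and 5.35 ± 3.96 (OE, n = 5). The log2 difference from Ctrl was -0.21 in KO (-1.91 to 1.49, limma adjusted p = 0.978) and -0.36 in OE (-1.72 to 0.99, limma adjusted p = 0.888). Without Ctrl 2 these were -0.66 and -0.81, and without Ctrl 1 they turned to 0.38 and 0.23. The KO difference was also positive, 0.18, without KO 2, and 0.087 in values as deposited.

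Nr0b2 (ENSMUSG00000037583, chromosome 4, 133553376 to 133556536, plus strand), the FXR-induced repressor SHP, was listed at 0 in 9 libraries and at 3.78 scaled TPM, or 1.11 as deposited, in Ctrl 2. It was above 1 TPM in 1 library only, fell under the filter of 1 TPM in 2 libraries and was not tested in limma. It was kept in the tests relative to enterocyte genes below. In the 9 libraries where it was at 0, its value there is only the enterocyte mean with its sign turned.

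OE against KO, the ends of the STAT5 range, gave small log2 differences with wide intervals. They were 0.68 for Fabp6 (-1.44 to 2.80), -0.22 for Slc10a2 (-2.22 to 1.78), 0.22 for Slc51a (-0.61 to 1.04), 0.44 for Slc51b (-0.47 to 1.35), 0.18 for Nr1h4 and -0.16 for Fgf15. All 6 had a limma adjusted p of 1.0. Single libraries decided several of these values. Without OE 1, Slc51a was at -0.010 and Nr1h4 at -0.0090, and without KO 2, Nr1h4 was at -0.074, Slc51a at 0.052 and Fabp6 at 0.029. Without KO 1, Fabp6 was at 1.33, and Fgf15 turned to 0.24, as it did to 0.17 without OE 4. The OE and KO libraries overlapped for each of the 6 genes, whereas OE lay wholly above KO for 4.04% of all genes tested and wholly below for 4.43%.

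In all, 0 of the 6 genes tested passed an adjusted p of 0.05 in any of the 3 comparisons. This matches the background, since limma called 0 of 13056 genes (0.0%) in each of them. Unadjusted p-values under 0.05 were given to 452 genes in KO against Ctrl, 797 in OE against Ctrl and 385 in OE against KO. Of the 6 genes, 5 had a positive difference in KO against Ctrl, with a median of 0.60, and 5 in OE against Ctrl, with a median of 0.92. Over all genes tested the medians were 0.038 and 0.021. Without Ctrl 2 the medians of the 6 genes were 0.13 and 0.30, with 4 and 5 positive. The comparisons of KO and OE with Ctrl share the Ctrl libraries. For 1 of the 6 genes, Slc10a2, both KO libraries lay above every Ctrl library, against 9.09% of all genes tested. For none did every OE library lie above every Ctrl library, against 2.21%. Without Ctrl 2, KO lay wholly above Ctrl for Slc10a2 and Slc51b (background 14.0%) and OE wholly above Ctrl for Slc51b (background 3.79%). Without Ctrl 3, OE 3 and OE 4, the libraries low in Y-linked genes, Ctrl was Ctrl 1 and Ctrl 2 alone. The log2 difference was then 2.57 for Slc10a2 in KO against Ctrl (limma adjusted p = 0.801). It was 1.26 for Slc51b in OE against Ctrl (limma adjusted p = 0.518). Both values lean more on Ctrl 2 than those from all libraries. For Slc51b the smallest adjusted p in OE against Ctrl over 23 settings of the fit was 0.417.

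**Figure D3:**
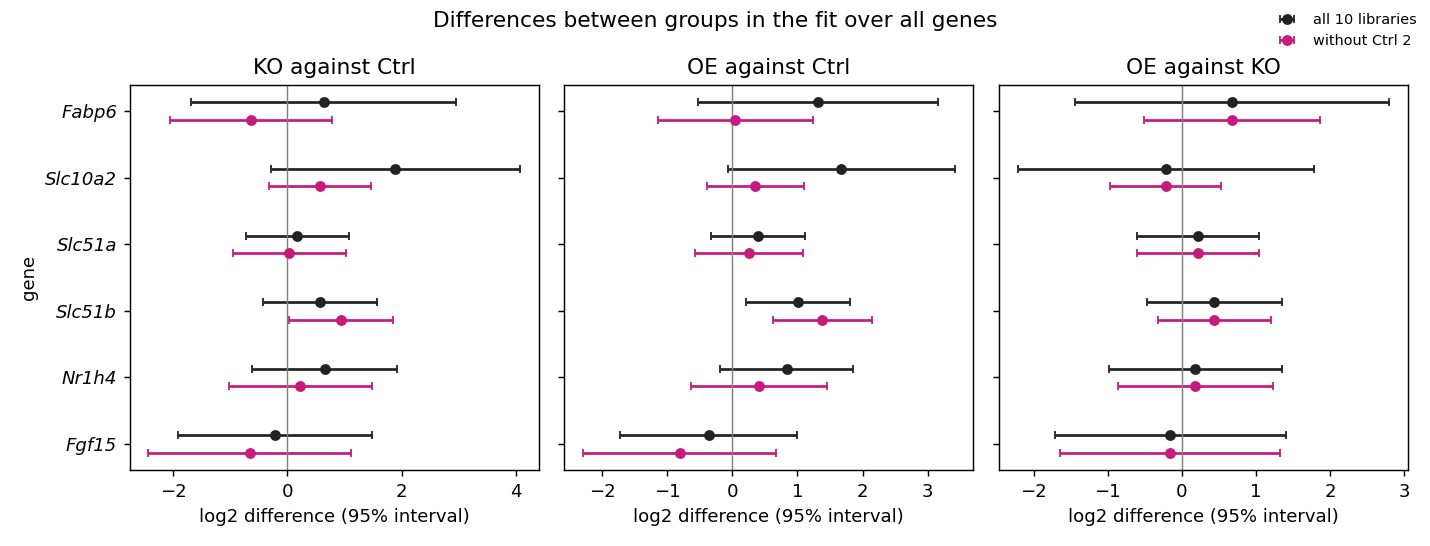
Log2 differences between groups in the fit over all 13056 genes, with 95% intervals, for the 6 genes tested. Black is all 10 libraries and magenta is without Ctrl 2, and the vertical line marks no difference. Leaving out Ctrl 2 moves Slc10a2 in KO against Ctrl from 1.89 to 0.57 and Fabp6 in OE against Ctrl from 1.32 to 0.05, while Slc51b in OE against Ctrl goes from 1.01 to 1.38.

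Order among the genes, which TPM allow because they are per length, was much the same in 9 libraries. Fabp6 was highest, Slc51a next, then Nr1h4 and Slc10a2 at overlapping levels, and Slc51b and Fgf15 below. In Ctrl 2, Slc51a at 145 scaled TPM came first and Fabp6 at 41.6 next, and Slc10a2 at 1.13 was last. Relative to the lowest of the other 9 libraries, with 1 added to both values, Ctrl 2 was 14.1-fold lower for Slc10a2 and 5.75-fold lower for Fabp6. For Nr1h4 the same measure was 1.67 and for Slc51a 1.11, and Slc51b and Fgf15 lay inside the range of the others. By deposited TPM these folds were 26.4 for Slc10a2, 19.4 for Fabp6, 5.74 for Nr1h4 and 4.24 for Slc51a. On that scale Slc51b (1.29) and Fgf15 (1.31) were lowest in Ctrl 2 as well, so it was the lowest library for each gene tested. A gap of 4-fold or more below the other libraries was found for 176 of the 13056 genes tested (1.35%) in scaled TPM and for 862 (6.6%) as deposited.

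Enterocyte genes were high in Ctrl 2 in scaled TPM. The summed level of the 20 enterocyte genes was 19196 scaled TPM, against 1630 to 10189 in the other libraries, of which OE 1 was the highest. As deposited it was 5653 TPM in Ctrl 2, inside the range of 1932 to 8469 of the others. Fabp6 stood at 0.0130 of Fabp2, a related fatty acid carrier of enterocytes, in Ctrl 2, and at 0.332 to 9.51 in the others. Slc10a2 stood at 0.000487 of the brush border peptidase Anpep in Ctrl 2, and at 0.0321 to 0.108 in the others. Both ratios are independent of scaling.

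Other markers moved with these values. Of the 5 genes of the proximal intestine, Gata4, a transcription factor of the upper small intestine, was at 63.1 scaled TPM in Ctrl 2 and 0.651 to 21.6 in the others, Onecut2 at 9.23 against at most 0.389, and Ada at 80.2 against at most 60.5. The iron exporter Slc40a1 went the other way, at 1.10 against 3.22 to 30.4, and Cybrd1 was near 0 in all, at 0.434 against 0 to 0.422. Summed, the 5 genes came to 154 in Ctrl 2 and 14.7 to 87.1 in the others. As deposited, Gata4 was at 18.6 TPM in Ctrl 2, inside the 0.771 to 24.1 of the others. The 6 colon markers were also highest in Ctrl 2, with a sum of 112 scaled TPM against 34.9 to 57.4. Slc26a3, an anion exchanger, made up most of it, at 103 against 30.9 to 51.1, and Aqp8 was at 7.33 against at most 0.272, while Aqp4 was lowest in Ctrl 2, at 0.0087 against 1.11 to 8.39. As deposited, Slc26a3 was lowest in Ctrl 2, at 30.2 TPM against 36.2 to 59.6. Paneth cell markers of the crypt base summed to 371 scaled TPM in Ctrl 2 and 2192 to 10688 in the others, and stem cell markers to 59.1 against 76.2 to 516. Liver markers summed to at most 2.34 in any library, with 3 of 5, the albumin gene among them, listed at 0 in all. The part of tissue position, cell makeup and RNA quality in the low Fabp6 and Slc10a2 of Ctrl 2 was not tested.

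**Figure D4:**
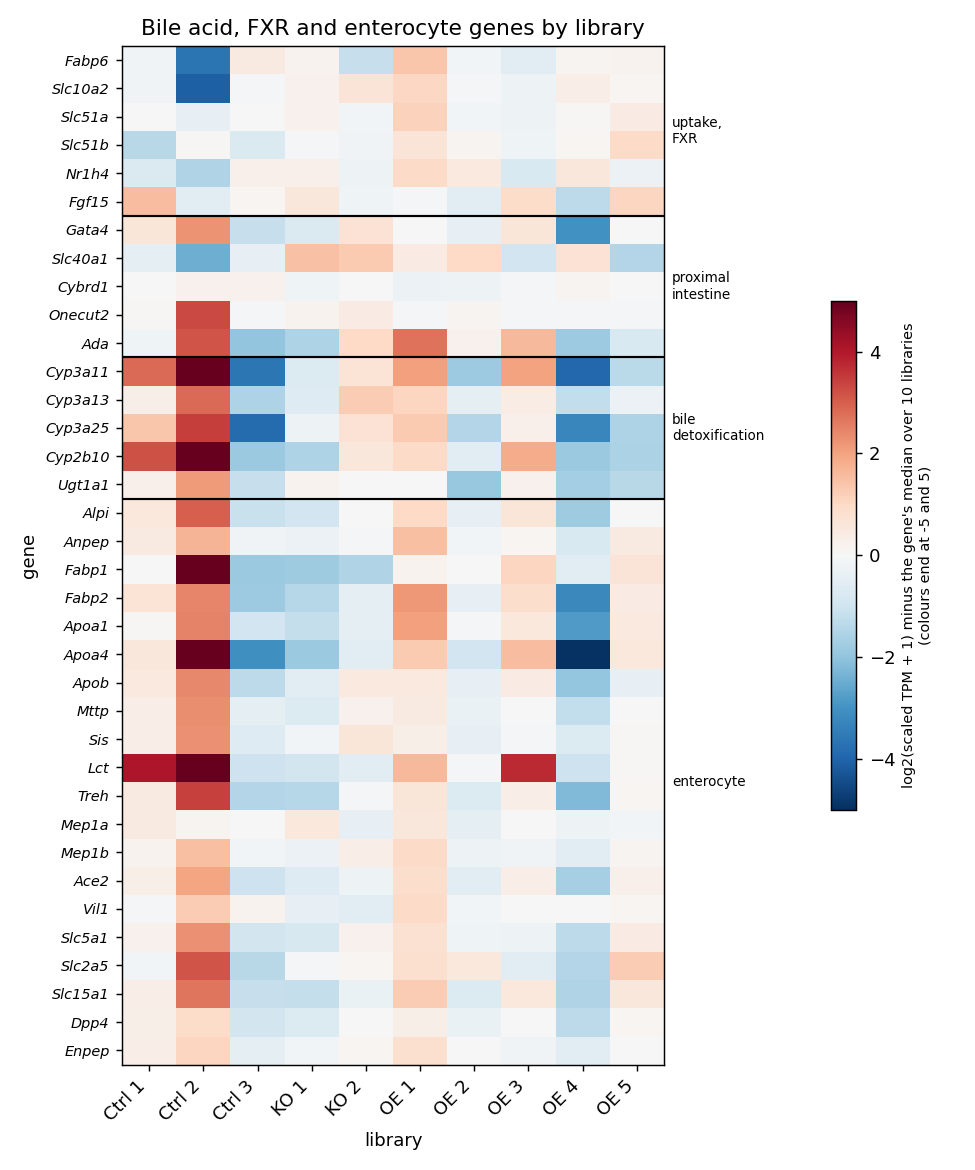
Level of each gene (rows) in each library (columns), as log2(scaled TPM + 1) minus the gene's median over the 10 libraries. Red is above and blue below the median, with colours ending at -5 and 5. In the Ctrl 2 column Fabp6 and Slc10a2 are blue, while most enterocyte genes, the bile acid detoxification genes and Gata4, Onecut2 and Ada are red.

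Among the other 9 libraries Slc10a2, Slc51a and Nr1h4 varied less than the typical enterocyte gene, Fabp6 and Slc51b about as much, and Fgf15 more. The highest library was 2.49 times the lowest for Slc10a2, 2.68 for Slc51a, 3.34 for Nr1h4, 5.74 for Fabp6, 5.87 for Slc51b and 12.9 for Fgf15. Over the 19 enterocyte genes above 0 in all 9 libraries, the median was 5.54, with a range from 2.13 to 537 (Apoa4), and Fabp2 was at 42.8. Over 6337 genes of at least middling level (a mean of 3 or more in log2) it was 2.31. OE 4, with the lowest enterocyte sum of 1630, still had Slc10a2 at 44.8 and Fabp6 at 584 scaled TPM.

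Levels were therefore also set against the mean of the 20 enterocyte genes of the same library, in log2, and tested by exact two-sided permutation over libraries. Relative to them, Slc10a2 was at -8.12 in Ctrl 2 and -1.98 to 0.55 in the others, and Fabp6 at -3.80 against 1.60 to 4.23. The enterocyte mean itself was highest in Ctrl 2, at 9.21 against 4.96 to 7.40 in the others. Part of these low values, and of the differences from Ctrl with all libraries, thus comes from the reference. Slc51b was 1.79 higher in OE than in Ctrl on this scale (exact permutation p = 0.107, adjusted over 21 tests 0.987), and 1.78 higher in KO than in Ctrl (exact p = 0.4, adjusted 0.987). Slc10a2 was 3.10 higher in KO than in Ctrl (exact permutation p = 0.4, adjusted 0.987) and Fabp6 2.10 higher in OE than in Ctrl (exact permutation p = 0.464, adjusted 0.987). Without Ctrl 2 the Slc10a2 difference was 0.77 and the Fabp6 difference turned to -0.17, while Slc51b was 1.16 higher in OE and 1.15 higher in KO than in Ctrl, with an adjusted exact permutation p of 1.0 for each. With all libraries, no test of the 21 had an adjusted p under 0.987. The numbers of libraries keep 1 tail of the test at or above 0.1 in KO against Ctrl, 0.0179 in OE against Ctrl and 0.0476 in OE against KO. The two-sided p doubles the smaller tail, so its limits are higher still. After the adjustment over 21 tests no p could then fall under 0.05, so the lack of a call here carries no information.

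The rest of the bile acid pathway was described from 6 lists with 44 genes, 32 of them tested. In each comparison 0 of the 32 passed, as did 0.0% of all genes. Their median log2 difference was -0.13 in KO against Ctrl, -0.25 in OE against Ctrl and -0.18 in OE against KO, and 0.15 and -0.092 in the first and the second without Ctrl 2. The 4 nuclear receptors of the highest mean level, of 11 listed receptors and regulators, were found in every library. Hnf4a, a master regulator of enterocytes, was at 64.6 to 94.6 scaled TPM, Vdr, the vitamin D receptor that also senses a bile acid, at 44.3 to 152, Nr1h2, an oxysterol receptor, at 31.0 to 104, and Rxra, the dimer partner of FXR, at 14.2 to 24.1. Of the 10 receptors and regulators tested, 5 had positive differences in KO against Ctrl and 4 in OE against Ctrl.

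For the FGF15 loop, Malrd1, which affects FGF15 release, was at 24.7 to 56.8 scaled TPM. Fgfr4, the receptor that FGF15 uses in liver, was at 0 to 2.71, and its partner Klb was listed at 0 in 8 libraries. S1pr2, a receptor for conjugated bile acids, was at 0.500 to 4.61, and Gpbar1, the membrane bile acid receptor, was listed at 0 in 9 libraries. Of the synthesis genes, Cyp7a1, the rate-limiting enzyme of the liver pathway, was listed at 0 in all 10 libraries. Hsd3b7, Cyp27a1, Amacr and Baat had means of 10.2, 8.44, 6.34 and 2.11 over the 10 libraries, and the other synthesis genes were under the filter.

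Among the 7 other carriers tested, Ctrl 2 was the highest library for 3 in scaled TPM. Abcc2, an apical exporter of conjugates, was at 369 in Ctrl 2 and 5.37 to 63.2 in the others, and Abcg5 and Abcg8, the sterol exporter, were at 177 and 117 against at most 81.0 and 50.6. Slco2b1, an uptake carrier of organic anions, was lowest in Ctrl 2, at 7.63 against 8.39 to 21.6. Abcb1a, Abcc4 and the basolateral exporter Abcc3, at 30.2, lay inside the range of the others. As deposited, Abcc2 was still highest in Ctrl 2, at 109 TPM against at most 77.1, but Abcg5 at 52.1 and Abcg8 at 34.4 lay inside the range of the others. Abcc3, at 8.89 against 24.3 to 66.7, lay below it. So did Abcb1a, at 10.5 against 13.2 or more, and Abcc4, at 0.0826 against 0.195 or more, and Slco2b1 stayed lowest in Ctrl 2. The 5 detoxification genes, among them the Cyp3a enzymes that hydroxylate bile acids, summed to 3588 in Ctrl 2 and 39.6 to 573 in the others. Cyp3a25 was at 1348 in Ctrl 2 and 7.64 to 328 in the others, Cyp3a11 at 1259 against 0 to 106, Cyp3a13 at 401 against 18.1 to 135, and Cyp2b10 at 436 against 0 to 32.0. As deposited, Cyp3a11 at 371 TPM and Cyp2b10 at 128 were still above the other libraries, at most 129 and 39.0, whereas Cyp3a25 at 397, Cyp3a13 at 118 and Ugt1a1 at 42.3 were inside their range. The list's median difference in OE against Ctrl was -1.37 with Ctrl 2 and -0.22 without it, and in KO against Ctrl -0.32 and 0.54. The Cyp3a genes are close relatives, and how reads were split between them is not given in the sources used here. Of the other genes reported as FXR targets in gut, Ang was listed at 0 in Ctrl 2 and was at 5.79 to 13.3 scaled TPM in the others. Car12 was lowest in Ctrl 2, at 2.39 against 2.98 to 7.51, so both lay on the same side as Fabp6 and Slc10a2. Nos2 was at 6.47 in Ctrl 2, inside the 1.76 to 25.4 of the others, and Il18 was listed at 0 throughout.

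**Figure D5:**
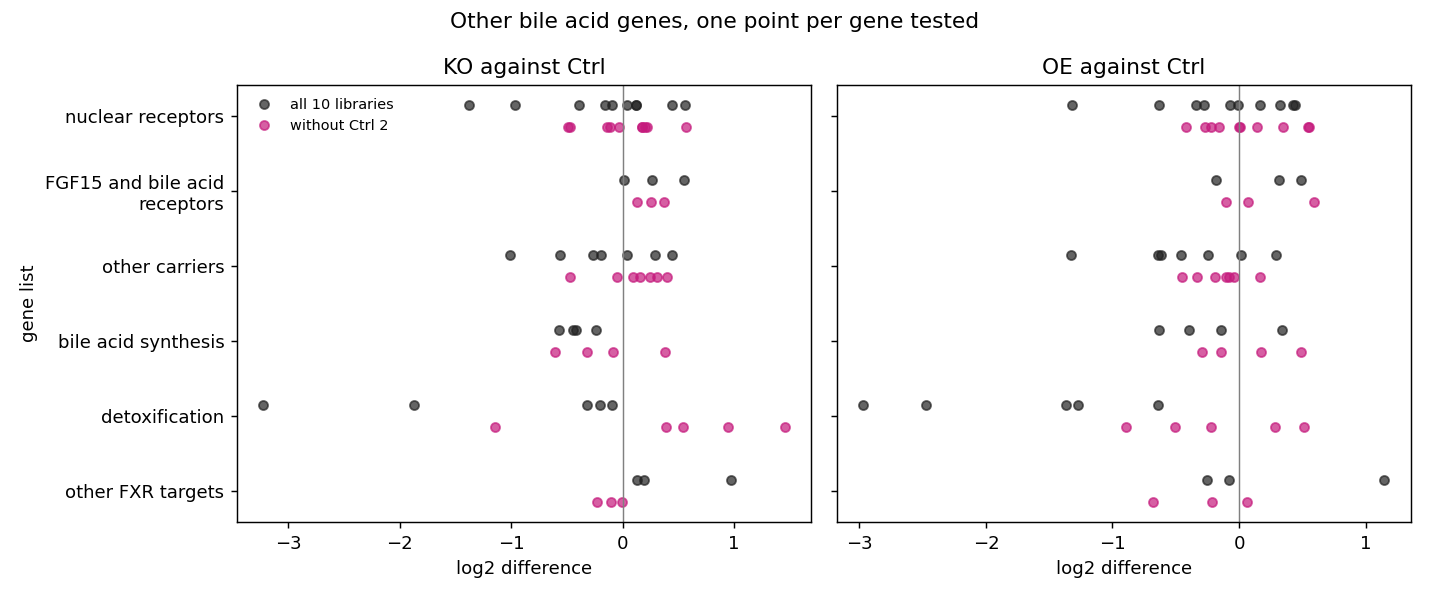
Log2 differences of the 32 other bile acid genes tested, 1 point per gene, by list, in KO against Ctrl (left) and OE against Ctrl (right). Black is all 10 libraries and magenta is without Ctrl 2. The detoxification genes shift most between the fits, from a median of -1.37 to -0.22 in OE against Ctrl.

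Genes whose levels ran most like those of the bile acid genes were ranked by Pearson r over the 10 libraries, among 6067 protein-coding genes with a mean log2 level of 3 or more. For Slc10a2 they were Sft2d1 (r = 0.99), Lhpp, Tceal8, Mak16 and Yars2 (0.98 to 0.96). For Fabp6 they were Cotl1 (0.96), Rpain, Gapdh, Psmc3 and Rpl21 (0.95 to 0.94). For Slc51a they were Neu1 (0.94), Mkrn1, Rpl15, Krtcap3 and Psd4, for Slc51b Pon2 (0.89), Mrps12, Ndufs5, Psma6 and Trnau1ap, and for Fgf15 Trim27 (0.83), Tinag, Rae1, Tars2 and U2af1l4. These values share their libraries and rest in part on Ctrl 2. Without it, r fell to 0.57 for Tceal8 and Mak16 with Slc10a2 but was 0.91 for Sft2d1, and it was 0.80 for Cotl1 with Fabp6 and 0.89 for Pon2 with Slc51b.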

How the data were processed

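Single-end total RNA libraries of ileal crypts (3 Ctrl, 2 KO, 5 OE) were analysed from the deposited TPM of 28987 genes. The submitters' processing notes name TopHat, Cufflinks and mm10 and give no version. The unit is given per the file headers in all libraries but Ctrl 1, whose unit was taken from its values. Symbols came by ID from GENCODE M21 (27458 found, 1529 not).

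TPM were divided by median-ratio factors over the 11146 genes above 0 in every library. The 13056 genes that reached 1 TPM in 2 or more libraries were tested in limma 3.58.1 (R 4.3.3) with a trend, on log2(scaled TPM + 1), with 3 group means and no other term. Adjusted p-values are Benjamini-Hochberg over all 13056 genes, with a threshold of 0.05. The pseudocount of 1 understates changes of low genes. The fit was also run on simulated normal values with each gene's own mean and spread. These held no library set apart like Ctrl 2, so they do not show how the fit handles 1. Exact permutation tests used scipy 1.17.1. Promoters were from RefSeq.

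The 7 genes and all gene lists were chosen with earlier results of these data known. Named genes are the 7, up to 4 of each pathway list by mean level, and the 5 of highest r for 5 of the 7. Further genes of the lists, and those of the marker lists, were named after their values were seen. Alternatives covered scaling, pseudocount, filter, variance model, replicate block and libraries left out. Leaving out Ctrl 2 with OE 1, or Ctrl 3 with OE 3 and OE 4, was chosen after seeing the data.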

Additional observations from a re-analysis of the deposited data

Results flagged for a closer look

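Fabp6 in OE 1, at 1401 scaled TPM, lay far from the other 4 OE libraries, which were at 359 to 603. Its gap to the nearest of them was 0.766 of the group's range, above Dixon's 95% value of 0.710 for 5 libraries. Of the 6 genes tested, each looked at on both ends, Fabp6 alone passed this limit in OE. Chance passes it in about 1 in 20 groups of normally spread values, and more often somewhere among 6 genes. The rule was applied to scaled TPM and not to the log2 values used in limma, on which a high library lies nearer to the others. OE 1 also had the second highest enterocyte sum, at 10189 scaled TPM, and its Stat5a, at 1.56, was inside the Ctrl range. Their part in its Fabp6 level was not tested.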

How the results depend on the processing

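None of the 6 genes passed an adjusted p of 0.05 in limma under any of 23 settings, the smallest being 0.399. Of 414 values of single genes, 398 kept their sign and 16 did not. Relative to enterocyte genes 235 kept their sign and 17 did not. Signs turned for Fgf15 in KO against Ctrl as deposited (0.087), and for Fabp6 in KO against Ctrl with library weights (-0.25). Leaving out Ctrl 2 with OE 1 gave -0.63 and -0.25 for Fabp6 in KO and OE against Ctrl, and, in OE against KO, -0.010 for Slc51a and -0.0090 for Nr1h4. Relative to enterocyte genes, Slc51b in OE against KO was -0.013 at a pseudocount of 0.1, and Fgf15 in OE against Ctrl was -0.031 against 4 reference genes. Leaving out 1 library at a time, Fabp6 in KO against Ctrl ran from -0.63 to 1.43. Fgf15 ran from -0.66 to 0.38 in KO against Ctrl, -0.81 to 0.23 in OE against Ctrl and -0.55 to 0.24 in OE against KO. In OE against KO, Nr1h4 ran from -0.074 to 0.44 and Slc51a from -0.010 to 0.38. Relative to enterocyte genes, Fabp6 ran from -0.43 to 3.51 in KO against Ctrl, -0.17 to 3.76 in OE against Ctrl and -0.69 to 1.2 in OE against KO. Fgf15 ran from -0.45 to 1.73, -1.03 to 1.14 and -1.27 to 0.11 in the same order. In OE against KO, Slc51a ran from -0.67 to 0.25, Slc51b from -0.34 to 0.37 and Nr1h4 from -0.79 to 0.31. Genes called over the whole table ran from 0 to 2 in KO against Ctrl, 0 to 1 in OE against Ctrl and 0 to 2 in OE against KO. Those ranges are for 1 library left out at a time. Outside them, with all libraries and no filter, 5 were called in KO against Ctrl and 7 in OE against KO. Fitting only the groups compared called 1 in KO against Ctrl and 1 in OE against Ctrl. Leaving out the 3 libraries low in Y-linked genes called 1 in OE against Ctrl and 1 in OE against KO, and leaving out Ctrl 2 with OE 1 called 1 in OE against KO. The cause of these changes was not tested. With a KO library left out, the lone one is assumed to vary like the other groups, and the values relative to enterocyte genes have no test. As deposited, the median of all genes moved to 0.38 in KO and 0.36 in OE against Ctrl.

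With the replicate block, 3 genes were called in OE against Ctrl and 0 in the other comparisons, and none of the 6 genes was among them. Libraries share only a number. Deviations from the group means correlated at -0.18 to 0.063 between same-numbered libraries, so the numbers were not treated as pairs.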

Other observations

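Without Ctrl 2, other genes ran most like the bile acid genes over the 9 libraries. For Fabp6 they were Arfip2 (r = 0.97), Prkcd, Baiap2l2, Ush1c and Ftl1, of which USH1C is a scaffold of the microvilli of the brush border. For Slc10a2 they were Sft2d1, Tmem125, Cstb, Tbcb and Bcl2l15 (0.91 to 0.88), and for Slc51a Arf5 (0.98), Timmdc1, mt-Cytb, Anks4b and Ctss. For Slc51b Mrps12 (0.92), Ndufs5, Pon2, Map2k1 and Lgmn led, and for Fgf15 Mical1 (0.94), Ano10, Tmem86a, Slc6a4 and B4galt6. Sft2d1 was thus first for Slc10a2 with and without Ctrl 2. These are descriptions over few libraries and were not tested.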
